A study of Mus musculus with 2 samples.

Results

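Microexons are internal exons so short that they carry a handful of codons, and here they were taken as internal exons of 3 to 30 bases. They were read off the spliced transcript models of long-read RNA sequencing, in models of annotated genes that were either annotated themselves or spliced in an unannotated way, and an exon was kept when models holding it with exactly these ends had at least 3 reads over both libraries. This gave 562 microexons in 485 genes, out of 82555 internal exons of any length that met the same read minimum (0.681%). The members were chosen by read number and exon length, so their read numbers and lengths are given as a description. The RNA came from the gastrocnemius, a calf muscle, of male B6CASTF1/J mice at 14 days of age. The series holds 1 group with 2 biological replicates of 2 µg RNA each and no contrast. The labels give both libraries 1 donor identifier and speak of several males, so whether animals were pooled is not stated, and spread between the libraries may in part be technical.

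Long reads show whole transcripts, so that a microexon can be counted against all reads that run across it and 2 microexons can be seen on 1 molecule. In nerve and in striated muscle, microexons are known for being short inserts of a few residues at the surface of a protein, often near a domain that binds a partner. An insert whose length is a multiple of 3 leaves the reading frame as it was, and other lengths shift it. Short exons are also part of ordinary gene structure, for example in collagens, where they hold whole repeats of the triple helix.

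The microexons that the results below turn on, each held by some reads and absent from others, are shown first. The coding bases of the neighbouring exons are in lower case and the microexon is in capitals. Coordinates are on mm10, and sequences are those of the GENCODE M21 transcripts, in the direction of transcription.
Anxa6 (annexin A6, 18 bases, chr11:54987051-54987068, minus strand): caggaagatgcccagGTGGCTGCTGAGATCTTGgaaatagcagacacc
Dctn1 (dynactin p150, 21 bases, chr6:83187764-83187784, plus strand): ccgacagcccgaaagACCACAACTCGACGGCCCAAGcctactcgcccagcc
Dnm2 (dynamin 2, 12 bases, chr9:21490658-21490669, plus strand): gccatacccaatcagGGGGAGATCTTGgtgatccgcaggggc
Dnm2 (30 bases, chr9:21487047-21487076, plus strand): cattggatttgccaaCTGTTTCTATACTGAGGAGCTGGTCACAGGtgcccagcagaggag
Mef2a (transcription factor, 24 bases, chr7:67244521-67244544, minus strand): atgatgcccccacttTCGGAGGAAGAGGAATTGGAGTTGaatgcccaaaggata
Mef2d (transcription factor, 21 bases, chr3:88161781-88161801, plus strand): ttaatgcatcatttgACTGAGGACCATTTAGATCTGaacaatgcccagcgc
Ppp3ca (calcineurin catalytic subunit, 30 bases, chr3:136932011-136932040, plus strand): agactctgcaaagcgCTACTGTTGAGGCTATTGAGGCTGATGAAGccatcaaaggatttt
Tmed2 (cargo receptor, 21 bases, chr5:124543487-124543507, plus strand): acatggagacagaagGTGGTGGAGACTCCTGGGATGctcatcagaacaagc
Trdn (triadin, 30 bases, chr10:33433701-33433730, plus strand): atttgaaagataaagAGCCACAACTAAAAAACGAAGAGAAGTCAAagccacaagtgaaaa
Stim2 (calcium sensor, 24 bases, chr5:54110116-54110139, plus strand): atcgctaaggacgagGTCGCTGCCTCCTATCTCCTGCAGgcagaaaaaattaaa

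The microexons drew 52796 including reads in replicate 1 and 28479 in replicate 2, of 938415 and 507197 reads on the same classes of models. Both libraries held 514 of them, 45 were read in replicate 1 alone and 3 in replicate 2 alone, and the median microexon had 18 including reads. Just inside the read minimum stood 60 exons with 3 reads, and just outside it 88 with 2 reads and 268 with 1 read. Fast-fibre marker genes (6 of 6 detected) summed to 300707 and 282734 CPM (reads per 1000000 reads without ERCC spike-ins), against 8.22 and 1.60 CPM for 8 neuronal markers, of which 5 had no read. No read fell on Rbfox3, the marker of mature neurons, which allows up to 2.74 and 4.79 CPM.

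Of the 562 microexons, 527 were annotated exons, 20 had 1 annotated splice site and 15 had none. By the annotation, 497 (88.4%) lay wholly in coding sequence, 16 ran from coding sequence into a UTR, 6 lay in a 5′ UTR and 8 in noncoding transcripts. Lengths piled up at the long end and at multiples of 3. There were 106 microexons of 30 bases, 97 of 27, 55 of 24 and 32 of 21, together 290 (51.6%), while 62 exons of 31 bases, just past the limit, met the same read minimum. The length was a multiple of 3 in 307 (54.6%), compared with 45.0% of 6714 exons of 31 to 60 bases, 39.4% of 35199 of 61 to 120 bases and 37.8% of 40079 longer ones. Among the microexons the share was 35.4% of 48 with 3 to 20 bases, 45.3% of 192 with 21 to 25 and 63.0% of 322 with 26 to 30, so that only the longest class stood above the exons of 31 to 60 bases by more than 1 percentage point. Without 20 microexons of collagen genes, 18 of them multiples of 3, the share was 53.3%. Of 600 annotated microexons that at least 20 reads ran across, 296 had at least 3 including reads and 275 had none. Multiples of 3 made up 58.1% of the 296 and 54.2% of the 275. By length the 2 shares were 36% and 34.7% at 16 to 20 bases, 40.9% and 72.3% at 21 to 25, and 70.3% and 39.6% at 26 to 30. In base composition the microexons differed somewhat from other exons. The median GC content of the 527 annotated microexons was 48.1%, against 51.2% over all 80263 annotated exons that were read, and the last base was G in 77.6% against 80.3%. A made up 31.2% of their bases against 26.3%, the first base was G in 41.6% against 49.3%, and the last bases were AG in 49.0% against 56.1%. Annotated exons of 31 to 60 bases lay close to the microexons in GC content (48.7%) and in a last base of G (76.9%). They had A in 28.8% of bases, a first base of G in 49.2% and last bases of AG in 52.0%.

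**Figure D1:**
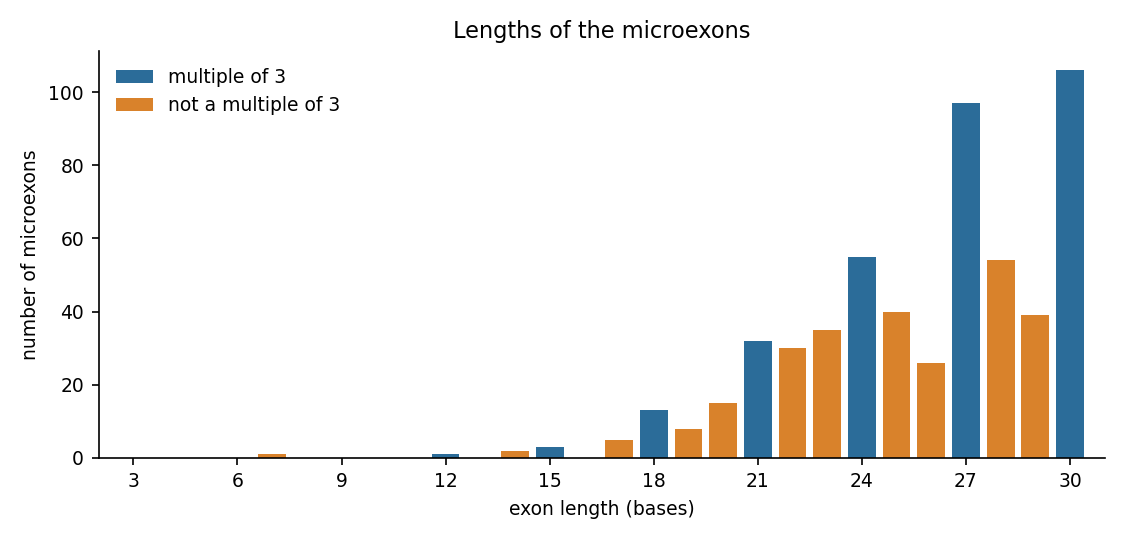
Number of microexons (y axis, both libraries together) by exon length in bases (x axis), with multiples of 3 in blue and other lengths in orange. The bars at 30, 27, 24 and 21 bases hold 106, 97, 55 and 32 microexons, and 4 microexons are shorter than 15 bases.

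Very short microexons were nearly absent from the models, including exons that the annotation puts in every coding transcript. Of the annotated exons that all coding transcripts across them hold and that at least 20 reads spanned, 125 of 126 with 26 to 30 bases had at least 3 exact reads, and so had 59 of 64 with 21 to 25 bases and 14 of 21 with 16 to 20 bases. The count fell to 1 of 9 at 10 to 15 bases and 0 of 7 at 3 to 9 bases. The median inclusion in these length classes was 99.74%, 99.02%, 92.3%, 0% and 0%. The exception at 10 to 15 bases was a 14-base exon of Col5a2, a chain of collagen V (chr1:45438870-45438883), held by 21 of 21 and 4 of 4 reads. What an exon under about 20 bases shows here is therefore its detection in these models, and a low inclusion at that length was not separated from a missed exon.

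**Figure D2:**
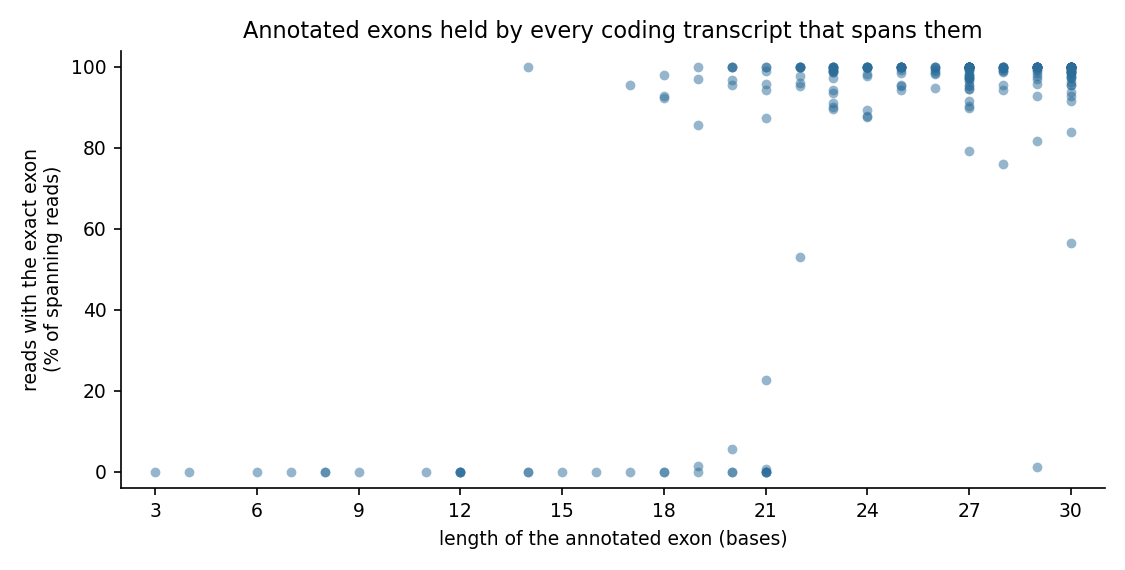
Each point is 1 of 227 annotated exons of 3 to 30 bases that every coding transcript across it holds, with at least 20 spanning reads over both libraries, by length in bases (x axis) and the share of spanning reads with exactly this exon (y axis). All but 1 of the exons under 16 bases sit at 0%, and 125 of 126 with 26 to 30 bases sit over 50%.

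The reads that lacked such an exon show what stood in its place, here for 4 exons, again in capitals.
Tnni2 (fast troponin I, 7 bases, chr7:142442691-142442697, plus strand): atgggagaTGAGGAGaagcgcaacagggcc
Tnni1 (slow troponin I, 4 bases, chr1:135803282-135803285, plus strand): atgccggaagtTGAGaggaaatccaagatc
Hnrnpk (an RNA-binding protein, 16 bases, chr13:58393853-58393868, minus strand): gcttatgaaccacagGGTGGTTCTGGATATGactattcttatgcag
Atp2a1 (fast-fibre calcium pump, 18 bases, chr7:126462500-126462517, minus strand): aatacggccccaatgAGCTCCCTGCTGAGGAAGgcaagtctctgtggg
For Tnni2, 0 of 2208 reads held the 7-base exon, with 196 of these reads in replicate 1 and 2012 in replicate 2. Of the 2208, 1972 (89.3%) joined the neighbours of that exon directly. All 208 reads across the 4-base exon of Tnni1 also joined its neighbours directly. For Hnrnpk none of 350 reads held the exon, and in 339 (96.9%) the neighbouring exons were longer by exactly its 16 bases. Suds3, a corepressor subunit, had the same structure at a 20-base exon in 91 of 93 reads. For Atp2a1, 1 of 132827 reads held the 18-base exon. In 131704 the neighbouring exons were together longer by 26 bases, a net gain of 8 bases over the annotated transcript. Hacd1, an enzyme of fatty acid elongation in muscle, had that net gain of 8 bases at its 19-base exon in 649 of 652 reads. Whether alignment placed these bases elsewhere was not tested, since no genome sequence was used here.

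Inclusion is the share of reads running past both ends of the exon that hold it exactly. The median was 99.8%, and 279 microexons (49.6%) were in every spanning read. The read minimum itself bears on these values, since the median was 66.7% for exons with 2 including reads and 3.58% for those with 1. Of the 324 with at least 20 spanning reads, 193 were included in over 95%, 111 were divided (5% to 95%) and 20 fell under 5%. The share divided, 34.3%, compares with 16.6% of exons of 31 to 60 bases, 11.4% of 61 to 120 and 13.7% of longer ones, counted alike.

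The most read microexons belonged to the contractile machinery. The 28-base exon of Myh4, a heavy chain of fast fibres, was in 9725 of 9795 and 2448 of 2464 reads (99.3%, exact 95% interval 99.1% to 99.4%). These intervals are exact Clopper-Pearson intervals and cover counting error only. The same-sized exon of Myh1 was in 98.6% of 2934 reads, that of Myh2 in 98.96% of 384, and that of the slow Myh7 in 99.8% of 664. Mybpc2, fast myosin binding protein C, held its 30-base exon in 6230 of 6245 and 2271 of 2275 reads. Myom2, an M-band protein, held a 23-base exon in 99.1% of 788 reads. Outside the sarcomere, a 25-base exon of Selenow, a small selenoprotein, stood at 99.2%, a 23-base exon of the ribosomal gene Rpl41 at 99.5% and a 24-base exon of Atp5mpl, a small subunit of ATP synthase, at 99.8%.

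Related genes kept a microexon of equal size, a pattern noticed after the values were seen. Of 13 microexons in myosin heavy chain genes, 11 had 28 bases, and they lie just before the loop that binds ATP. The alignment below takes Myh4 as reference, with bases that differ from it in capitals.
Myh4 (chr11:67242141-67242168): atcgtgagaatcagtccatcctgattac
Myh8 (neonatal, chr11:67283252-67283279): atcgtgagaaCcagtccatcctgatCac
Myh1 (chr11:67203576-67203603): atcgGgagaaCcagtcTatTTtgatCac
Myh2 (chr11:67176144-67176171): aCAgGgagaatcagtcAatcctgatCac
Myh7 (chr14:54991716-54991743): atcgGgagaatcagtccatcctCatCac
Myh9 (non-muscle, chr15:77797001-77797028): aCcgGgaAGatcagtccatcctgTGCac
The Myh8 exon shared 26 of 28 bases with Myh4 and the Myh9 exon 21, while those of Myh6 and Myh7 were identical, so that reads could be assigned between these genes only from the rest of the transcript. The 3 readers of N6-methyladenosine, Ythdf1, Ythdf2 and Ythdf3, each had a 25-base exon held by all 47, 70 and 35 reads, and the exons of Ythdf2 and Ythdf3 shared 22 bases. In the TRIM family, 10 of 12 microexons had 23 bases but little common sequence. Those of the muscle RING-finger ligases Trim63 and Trim54 shared 15 bases and those of Trim63 and Trim7 only 6. Trim54 stood at 98.9% of 373 reads, Trim35 at 98.8% of 583, Trim63 at 93.6% of 329 and Trim55 at 89.6% of 77. Of the non-including Trim63 reads, all 21 had neighbouring exons with shifted ends and none joined the neighbours directly.

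Collagens carried 20 microexons in 8 genes, 14 of them of 27 bases, at a median inclusion of 98.5%. Fibroblast and matrix markers summed to 6942 CPM in replicate 1 and 2743 CPM in replicate 2, and their part in these values was not tested. In these bulk libraries fewer cells of a type and less RNA per cell cannot be told apart. Both 27-base exons of Col6a2 were in 88 of 93 reads.

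Myl1, the fast essential light chain, held the most read pair and used the members of the pair as alternatives. The 25-base exon was in 8552 of 13608 reads of replicate 1 (62.8%) and 7108 of 10235 of replicate 2 (69.4%). The 28-base exon was in 5117 (37.6%) and 3134 (30.6%) of the same reads. Their sequences follow, with the same coding bases after both.
Myl1 (25 bases, chr1:66934518-66934542, minus strand): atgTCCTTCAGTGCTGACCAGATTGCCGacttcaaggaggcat
Myl1 (28 bases, chr1:66934246-66934273, minus strand): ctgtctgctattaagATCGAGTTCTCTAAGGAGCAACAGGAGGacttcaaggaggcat
The microexon went with the first exon. Of 15626 reads that began at the inner first exon, 95.1% held the 25-base exon alone (8146 and 6722 reads in the libraries), 2.68% held both and 0.0128% held the 28-base exon alone. Of 7697 reads that began at the upstream first exon, 99.9% held the 28-base exon alone (4818 and 2870 reads) and 0 held both. Myl1 is a textbook case of this arrangement, its upstream promoter giving the longer light chain 1 and its inner promoter light chain 3.

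Among the divided microexons the commonest alternative was a direct join of the neighbouring exons. In 52 of the 111, over 50% of the non-including reads joined the neighbouring exons directly, at the ends these exons have in reads or transcripts with the microexon. Among these was the 28-base exon of Myl1, whose non-including reads mostly began at the inner first exon. Direct joins were also found at the 4-base exon of Tnni1, annotated in every coding transcript, so they do not by themselves show skipping. In 27 most held an overlapping exon or retained sequence, in 15 the neighbours had shifted ends, in 12 another intron crossed the exon, and in 5 no form passed 50%. Frame went with the form. Of the 52 mostly left out by a direct join, 42 (80.8%) were multiples of 3, and of the 39 of these in coding sequence 35 (89.7%) were. Of the 15 with shifted neighbours, 4 (26.7%) were. Over all 111 divided microexons the count was 71 (64.0%), and over the 86 divided coding ones 60 (69.8%). The share among all divided coding exons was 63.7% at 31 to 60 bases, 44.0% at 61 to 120 and 40.4% above. Among divided coding exons mostly left out by a direct join it was 84.9% at 31 to 60 bases, 63.2% at 61 to 120 and 57.4% above. Coding microexons with over 95% inclusion were multiples of 3 in 101 of 187 (54.0%), which ranged from 2 of 12 at 3 to 20 bases and 15 of 51 at 21 to 25 to 84 of 124 at 26 to 30. Coding exons of 31 to 60 bases with over 95% inclusion were multiples of 3 in 45.8%.

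**Figure D3:**
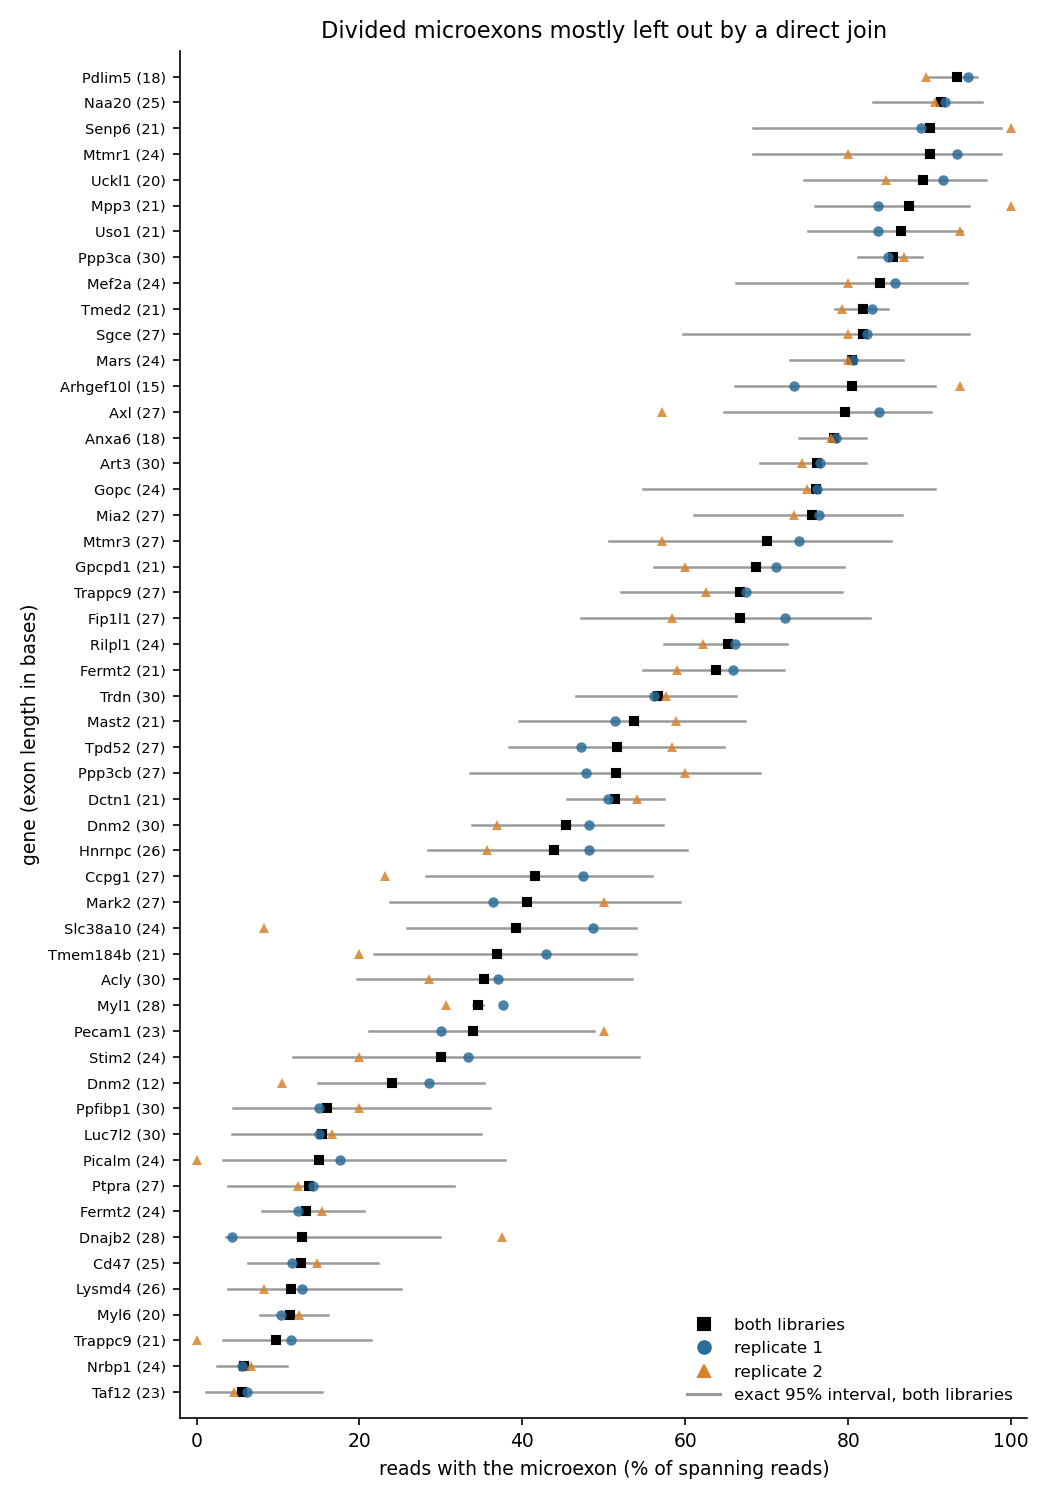
Inclusion (x axis, % of spanning reads) of the 52 divided microexons mostly left out by a direct join of the neighbouring exons. They are sorted by value, with gene and length in bases on the y axis. Squares give both libraries together with the exact 95% interval as a line, circles replicate 1 and triangles replicate 2. Inclusion runs from 5.56% in Taf12 to 93.3% in Pdlim5, and intervals are wide where few reads span the exon.

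Roles were given to the divided genes after their values were seen, and the frame counts by role are a description beside the 71 of 111 over all of them. The genes with no shared role had 8 of 25 multiples of 3. In proteins of calcium release, of the sarcolemma and of membrane calcium binding, all 7 divided microexons, in 5 genes, were multiples of 3. Of these, 3 belong to Trdn, and 2 of the 3 are overlapping forms of 1 exon. Triadin, which ties the release channel to its calcium store, had 13 microexons, the most of any gene, of which 12 were multiples of 3 and 9 were over 95% included. Its 30-base exon was divided, with 41 of 73 reads in replicate 1 and 19 of 33 in replicate 2 (56.2% and 57.6%), and both libraries lay close together. The 24-base exon of Trdn was in 62 of 73 and 31 of 33 reads, and 9 further reads used a start 3 bases further in. Anxa6, a calcium-dependent membrane-binding protein, held its 18-base exon in 215 of 274 and 99 of 127 reads (78.3%, 73.9% to 82.2%). All 87 other reads joined the neighbouring exons directly. At 18 bases, an exon left out was not separated from one that was missed. The 27-base exon of Sgce, epsilon-sarcoglycan, was in 14 of 17 and 4 of 5 reads. The 24-base exon of Stim2, a sensor of stored calcium, was in 5 of 15 and 1 of 5. Atp2a2, the slow-fibre calcium pump, held its 18-base exon in 135 of 145 and 33 of 37 reads, and 13 of the 14 others had shifted neighbours.

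Signalling proteins had 9 divided microexons in 9 genes, all multiples of 3. The kinase Srpk3 (26 bases) and the receptor Cd47 (25 bases), neither a multiple of 3, were placed under other roles. Ppp3ca, a catalytic subunit of the phosphatase calcineurin, included its 30 bases in 191 of 225 and 92 of 106 reads (85.5%, 81.2% to 89.1%). Its relative Ppp3cb held an annotated exon of the same length in 28 of 29 reads and an unannotated 27-base exon in 11 of 23 and 6 of 10. For Mapk12, the p38 kinase of muscle, the 30-base exon was in 64 of 76 and 41 of 49 reads, and 19 of the 20 others crossed it with another intron. The kinases Mast2 (21 bases) and Mark2 (27 bases) stood at 53.7% of 54 and 40.6% of 32 reads. Low inclusion was found for the pseudokinase Nrbp1 (24 bases), with 6 of 108 and 2 of 30 reads, and for the receptor phosphatase Ptpra (27 bases), with 3 of 21 and 1 of 8. The receptor kinase Axl held 27 bases in 31 of 37 and 4 of 7 reads.

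Membrane traffic gave the largest group with a shared role, 19 divided microexons in 16 genes, of which 17 were multiples of 3. Tmed2, a cargo receptor between endoplasmic reticulum and Golgi, was the deepest, with its 21 bases in 331 of 399 and 137 of 173 reads (81.8%, 78.4% to 84.9%). Dynamin 2, which cuts vesicles from membranes, had both a 30-base exon in 27 of 56 and 7 of 19 reads and a 12-base exon in 16 of 56 and 2 of 19. The latter is the only annotated microexon under 14 bases that met the read minimum. Rilpl1 (24 bases) stood at 65.2% of 164 reads, Mia2 (27 bases) at 75.5% of 49, and Trappc9 (27 bases) at 66.7% of 51. The paralogues Tpd52 and Tpd52l2 each had a 27-base exon, at 51.7% of 60 and 61.6% of 73 reads. The phosphoinositide phosphatase Mtmr3 (27 bases) was at 70.0% of 30 reads, and Picalm, a clathrin adaptor, held 24 bases in 3 of 17 and 0 of 3.

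Among 16 divided microexons of cytoskeleton, adhesion and matrix, in 12 genes, Dctn1 was the most even. This large subunit of dynactin, the partner of the dynein motor, held its 21 bases, which lie beside the microtubule-binding domain, in 106 of 210 and 40 of 74 reads (51.4%, 45.4% to 57.4%). Arhgef10l held a 15-base exon in 22 of 30 and 15 of 16 reads. Cd47, a receptor for integrins and SIRP, held 25 bases in 6 of 51 and 4 of 27 reads, and the scaffold Ppfibp1 30 bases in 3 of 20 and 1 of 5. Pecam1, itself a marker of endothelium, held a 23-base exon in 12 of 40 and 5 of 10 reads, while endothelial markers summed to 269.5 and 148.5 CPM.

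Transcription factors of the MEF2 family drive the genes of differentiated muscle and carry a microexon known as the beta exon. Mef2d held it in 20 of 25 and 15 of 18 reads (81.4%, 66.6% to 91.6%), and Mef2a in 18 of 21 and 8 of 10 (83.9%, 66.3% to 94.5%). An annotated 24-base coding exon of Mef2c was in none of the 73 and 28 reads across it. Whether that exon was left out or missed was not tested. Among the 8 Mef2d reads without the exact exon, 2 joined the neighbours directly, 2 had neighbours longer by its length and 4 had other shifted ends. All 5 such reads of Mef2a joined the neighbours directly. RNA-processing and translation genes gave 9 divided microexons, 5 of them multiples of 3. The methionyl-tRNA synthetase Mars held 24 bases in 79 of 98 and 32 of 40 reads, the splicing factor Luc7l2 held 30 bases in 3 of 20 and 1 of 6 (50% with incomplete models counted), and Fip1l1, of the polyadenylation machinery, held 27 bases in 13 of 18 and 7 of 12. Srpk3, a kinase of splicing factors made in muscle, stood at 94.8% of 310 reads for 26 bases. In metabolism, 4 of 7 were multiples of 3. The 30-base exon of Acly, which makes cytosolic acetyl-CoA, was in 10 of 27 and 2 of 7 reads, and the 21-base exon of Uqcrh, of respiratory complex III, in 272 of 292 and 273 of 286.

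In the group of contractile and Z-disc proteins 3 of 10 divided microexons were multiples of 3. The 23-base exons of Trim63 and Trim55 were counted in this group. Pdlim5, a Z-disc adaptor, held 18 bases in 216 of 228 and 77 of 86 reads (93.3%, 90.0% to 95.8%), and stood at 52.4% when models with new splice sites were left out. Slow troponin T, Tnnt1, held a 27-base exon in 75 of 82 and 23 of 27 reads and a 22-base exon in 37 of 82 and 16 of 27. In 55 of the 56 reads without the latter, the neighbours had shifted ends. Tnnt3, the fast troponin T, had the shortest member, 7 bases with 1 annotated site, in 8 of 962 and 3 of 706 reads. It starts at the same base as an annotated 14-base exon that no read held.

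Whole reads showed how divided microexons of 1 gene combined. In Dnm2, 32 of 75 reads held the 30-base exon alone, 16 the 12-base exon alone, 25 neither and 2 both, with none of the reads in replicate 2 holding both. At 12 bases, a read without the exon was not separated from a read in which it was missed. In Fermt2, the adhesion protein kindlin 2, 65 of 127 reads held the 21-base exon alone, 16 held it with the 24-base exon, 1 held the 24-base exon alone and 45 neither. In Tnnt1 the 22-base exon occurred with the 27-base exon in 51 reads and without it in 2, while 47 held the 27-base exon alone. In Trdn 55 of 106 reads held both the 30- and the 24-base exon, 38 the 24-base exon alone, 5 the 30-base exon alone and 8 neither. Of the last 5 and 8 reads, 4 and 5 held the 21-base form of the later exon. In Car14, a carbonic anhydrase, the 22- and 21-base exons were on the same 41 reads and missing together from the other 128. Shifted neighbours made up 116 of the 140 reads across the 21-base exon that lacked it. Without models holding new splice sites the 22- and 21-base exons stood at 76.5% and 57.8%. The reads of a library are not independent samples of animals, so these counts are given with no test.

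**Figure D4:**
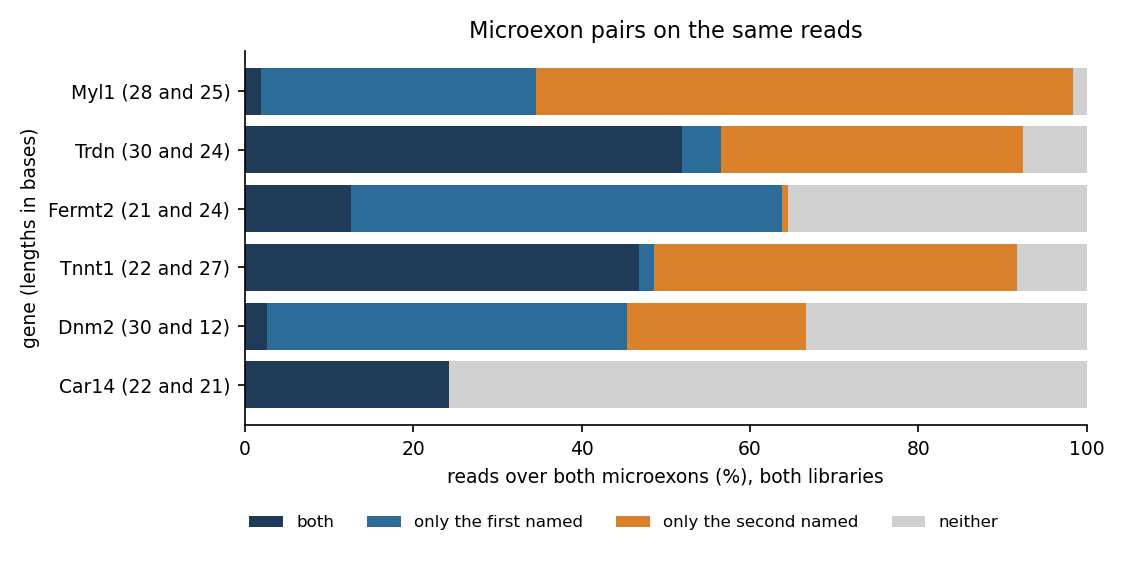
Share of the reads running over both microexons (x axis, %, both libraries together) that hold both, only the first named, only the second named or neither, for 6 genes with the lengths of the exons in bases on the y axis. The bar of Myl1 is nearly all single-exon reads (32.7% and 63.7%), Dnm2 has both exons in 2.67%, and Car14 has either both or neither. For Dnm2 a missed 12-base exon was not separated from one left out.

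Some microexons were absent from the annotation. The most read was a 21-base exon of Fermt2 (chr14:45462715-45462735), with neither splice site annotated, in 58 of 88 and 23 of 39 reads (63.8%, 54.8% to 72.1%). Another, of 24 bases (chr14:45463246-45463269) was in 11 of 88 and 6 of 39. Uso1, a tether of Golgi vesicles, held an unannotated 21-base exon in 36 of 43 and 15 of 16 reads, Gpcpd1, a glycerophosphodiesterase, a 21-base exon in 37 of 52 and 9 of 15, and Uckl1, a uridine kinase-like enzyme, a 20-base exon in 22 of 24 and 11 of 13. The 27-base exon of Ccpg1, a cell-cycle protein and receptor of autophagy, was in 19 of 40 and 3 of 13 reads. In Ptcd3, a mitochondrial ribosome protein, a 25-base exon that shares 1 site with an annotated 29-base exon was in 58 of 60 and 19 of 20 reads, and the annotated form was in 1 of 80. Fhod3, a formin of the sarcomere, held an unannotated 24-base exon in all 12 reads. Of the 15 microexons with neither site annotated, 10 were multiples of 3.

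A list of 86 genes known for microexons or very short exons in muscle or nerve, written with earlier results of these data known, had reads in 83. Of these genes, 27 held a microexon that met the rule, 48 microexons in all, 37 of them multiples of 3 and 16 divided, beside 307 and 111 of all 562. Trdn alone gave 13 of the 48 and 12 of the 37. Other annotated microexons in genes of the list had no including read. Among them were a 24-base exon of Bin1 across 1316 reads and a 21-base exon of Dtna across 46. Exons of 30 and 27 bases in Ryr1 were spanned by 37 reads and held by none. Whether these exons were left out or missed was not tested. Several of the 48 had few including reads. Abi1, a regulator of actin, held its 15-base exon in 7 of 11 and 1 of 2 reads, and Vav2, Dtnb and Ank2 included 22, 21 and 22 bases in all of 3, 3 and 4 reads. Cacnb1, a calcium channel subunit, held a 20-base exon in 3 of 482 reads, Pdlim7 a 17-base exon in 8 of 882 and Camk2b, a calcium-dependent kinase, a 17-base exon with 1 annotated site in 4 of 99. No intron crossed the Camk2b exon in the other reads, so its inclusion was 100% when only such introns were counted against it. Of 27 regulators of short exons, 20 had at least 10 reads. Rbm38 and Rbm24, RNA-binding proteins of muscle, stood at 238.9 ± 78.2 and 180.8 ± 47.9 CPM (SD, n = 2), Fxr1 at 164.5 ± 60.9, Mbnl2 at 118.1 ± 47.4 and Qk at 91.6 ± 17.2. Rbfox1 had 29.9 ± 1.64 CPM and Rbfox2, of the same family, 16.3 ± 2.76, while Ptbp1, which represses many short exons, had 10.5 ± 5.82 and Ptbp2 7.76 ± 1.94. Srrm4, the activator of neuronal microexons, had no read in either library, and its relative Srrm3 had 1 in each.

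Inclusion was compared between the 2 libraries by Fisher's exact test (two-sided) on including and other reads, adjusted by the Benjamini-Hochberg method over every internal exon tested. The test compares these libraries, not conditions, and covers counting error only. Over all exons 31 of 13998 (0.221%) had an adjusted p under 0.05. Of the microexons, 169 could be tested and 3 were called (1.78%), with 6 below 0.05 before adjustment, against 308 over all exons. The other 393 microexons were not tested because fewer than 10 reads spanned them in a library (328) or every read held them (65). The median absolute difference between libraries was 2.43 percentage points over the tested microexons and 2.08 over all tested exons, and 6.94 over the divided microexons. Both Myl1 exons were called, on the same reads and as alternatives to each other, so that they are not separate differences. The 25-base exon was lower in replicate 1 (62.8% against 69.4%, adjusted p = 4.55e-23 by Fisher's exact test) and the 28-base exon higher (37.6% against 30.6%, adjusted p = 8.81e-26 by Fisher's exact test). The third was the 30-base exon of Tnni2, in 45 of 196 reads of replicate 1 and 1929 of 2012 of replicate 2 (adjusted p = 1.335e-125 by Fisher's exact test). That call rests on how the files class the same structure. The commonest chain of introns with this exon is an incomplete match, left out here, with 3383 reads in replicate 1, and an unannotated spliced model with 1899 reads in replicate 2. With incomplete models counted, inclusion was 86.6% of 3960 and 84.5% of 2283 reads, and the exon was not called.

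**Figure D5:**
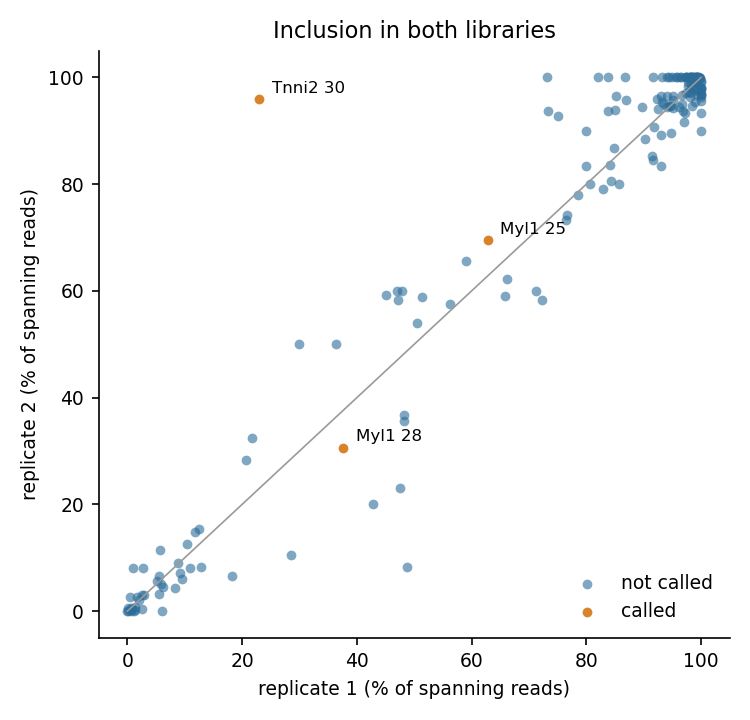
Inclusion in replicate 1 (x axis) and replicate 2 (y axis), in % of spanning reads, of the 169 microexons tested between the libraries, with the line of equal values. The 3 called by Fisher's exact test after adjustment are orange. Both Myl1 exons lie near the line, and Tnni2 lies far from it, at 22.96% and 95.9%.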

How the data were processed

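Values are whole counts of reads for each transcript model, as the authors deposited them in a table for each library, with model structures on mm10 in a paired annotation built on GENCODE M21, per the file headers and the deposited file descriptions. Attribute names in that annotation point to TALON. Aligner and read correction: not given in the sources used here. Their settings for short exons can decide which microexons are seen. Counts were used as deposited, without ERCC contigs (1094607 and 626289 reads). Models of the classes Known, NIC and NNC entered (annotated, new combinations of sites, new sites), incomplete and genomic ones did not. The class is not tied to the annotation alone, since the same structure can differ in class between the files. Exons were merged by coordinates and strand. Spanning reads are those of models of the same gene that begin before and end after the exon. Neighbours were called shifted when their ends lay within the exon length plus 10 bases of a known join. Exons with 5% to 95% inclusion and at least 20 spanning reads were called divided. The between-library test needed 10 spanning reads per library and was tested on simulated counts.

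The members and lists were chosen with earlier results of these data known. Named are the 15 most read, the divided, the 5 shortest and the called microexons, those in the gene list, up to 10 unannotated ones, and regulators with 10 reads. Roles of divided genes, and the families, were assigned after the values were seen. Some named microexons are given only in counts or in the plots. Intron motifs, planned at first, were not analysed here, as no genome sequence was used. Python 3.11.15, numpy 2.4.6, scipy 1.17.1 and matplotlib 3.10.9 were used.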

Additional observations from a re-analysis of the deposited data

How the results depend on the processing

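Of 562 microexons, 355 remained with at least 10 including reads, 918 were counted with 1 read, 363 at 3 to 27 bases and 4126 at 3 to 51 bases, and 363 to 500 in a single library. The share of multiples of 3 (54.6%) moved only with lengths up to 51 bases (46.7%), and lay at 53.7% to 56.6% in single libraries. Median inclusion (99.8%) was 98.9% with 10 reads, 96.4% with 1 read, 99.4% with incomplete models, 98.8% up to 27 bases, 99.85% with longer neighbours counted as including, and 100% with Known and NIC models only, models of at least 2 reads, lengths up to 51 bases, only introns over the exon counted against it, and in either single library (100% to 100%). The 111 divided microexons became 71 with Known and NIC models only, 460 up to 51 bases, 56 with only direct joins counted against the exon, and 36 to 93 in single libraries, 36 without replicate 1. Counting neighbours longer by exactly the exon length as including left 111. The last and the direct-join setting were chosen after seeing the data. Between libraries 2 to 4 microexons were called under the 6 alternatives, both Myl1 exons in each. Tnni2 was not called with incomplete models or with only introns over the exon counted against it, and the 22-base exon of Tnnt1 was called with Known and NIC models only. Counting only introns over the exon against it moved 13 of 155 named microexons by over 20 points, among them Camk2b from 4.04% to 100%, the 28-base exon of Trdn from 3.17% to 83.3% and Wwp1 from 2.07% to 75%. Known and NIC models only moved 8 of the 144 that kept a value, among them Pdlim5 to 52.4% and Car14 (22 bases) to 76.5%, and incomplete models moved Luc7l2 to 50%. Without replicate 1, Slc38a10 (24 bases) moved from 39.2% to 8.33%, and the cause was not tested. Without replicate 2, Tnni2 moved from 89.4% to 22.96%, as its commonest model is classed as incomplete in replicate 1. Depth limits the rest: the median microexon had 25 spanning reads.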
